A study of Drosophila melanogaster with 24 samples.

Results

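The 10 genes described here encode proteins that pack the DNA of the sperm head or build the sperm tail of the fruit fly Drosophila melanogaster: ProtA, ProtB, dj, Mst84Da, Mst84Db, Mst84Dc, Mst84Dd, Mst87F, Mst98Ca and Mst98Cb. They were taken by name, and the names were chosen with earlier results of these data known. The counts below therefore describe these genes and do not test the choice. Every probe whose gene symbol in the platform annotation was one of these names was used, whatever its values, which gave 14 of the 23808 probes on the array and 10 of the 11663 genes that could be named. Mst84Da, Mst84Db, Mst98Ca and Mst98Cb had 2 probes each, called probe 1 and probe 2, and the other genes had 1 probe each. All 14 were measured on all 23 arrays that held ratios, and no filter on low values was applied.

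The series followed RNA through the life cycle in 8 stages: embryos of 4-8 h, 8-12 h and 12-16 h, a pool of larvae of different ages, pupal stages 1, 2 and 3, and young adults, for which males and females were both collected. Total RNA of whole animals was compared on glass slides with 2 dyes against RNA of 0-4 h embryos, on 3 arrays a stage, except pupal stage 1, which rests on 2. Strain, genotype, adult age and the sex ratio are not given in the labels. The labels describe the arrays of a stage as independent experiments but do not say which animals each came from, so p-values measure the spread between arrays, part of which may be technical. Values are log2 ratios with the stage on top and the 0-4 h embryo below, relative to the median probe of the array, so a value of 1 is a doubling.

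In the testis, germ cells grow as spermatocytes, pass through meiosis and become spermatids, which are remodelled into sperm. Many of the genes needed in the spermatid are transcribed earlier, in the spermatocyte, and their messengers are stored and translated after meiosis. In the spermatid nucleus most histones are replaced by transition proteins and then by the protamines ProtA and ProtB. The Mst84D, Mst87F and Mst98C proteins are rich in cysteine, glycine and proline and belong to the sperm tail. The gene dj (don juan) encodes a protein of the sperm tail that is found along the mitochondria that run with it. In the RefSeq gene table (Release 6 plus ISO1 MT) several of these genes are direct neighbours with 0 protein-coding genes between them: Mst84Dd, Mst84Dc, Mst84Db and Mst84Da in a row, Mst98Ca beside Mst98Cb, ProtA beside ProtB, and dj beside its relative djl. Close relatives can bind each other's probes on such arrays, which was not tested.

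With arrays centred, RNA for most of these genes was near the 0-4 h embryo in later embryos, higher in pupae and highest in adults. Without centring, the median over the 14 probes was 0.52 at 4-8 h. It was then 0.06, 0.22 and 0.52 at pupal stages 1 to 3, and 2.44 in adults. In young adults 10 of the 14 probes, from 9 of the 10 genes, rose at an adjusted p under 0.05 by limma, against 15.2% of all probes on the array. Their median was 2.99, against 0.06 for all probes, which centring holds near 0. The largest values belonged to Mst84Da probe 2, at 5.13 (34.9-fold), and dj, at 5.04 (33.0-fold). Adults passed over pupal stage 3 for 1 of the 14 probes (1.10% of all probes) and over pupal stage 2 for 1 (1.34%). Mst84Db and Mst98Cb counted through probe 1 only, with probe 2 at 0.11 and 0.01 in adults. Mst98Cb probe 1 no longer passed without centring, or without adult array a or c. Mst98Ca is the gene with no passing probe in adults. With arrays centred it was high instead in larvae and at pupal stages 1 and 2. In whole animals fewer cells of a type and less RNA per cell cannot be told apart. Comparisons with the 0-4 h embryo share that reference, and the test of a stage against it leaves out the reference's own spread.

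**Figure D1:**
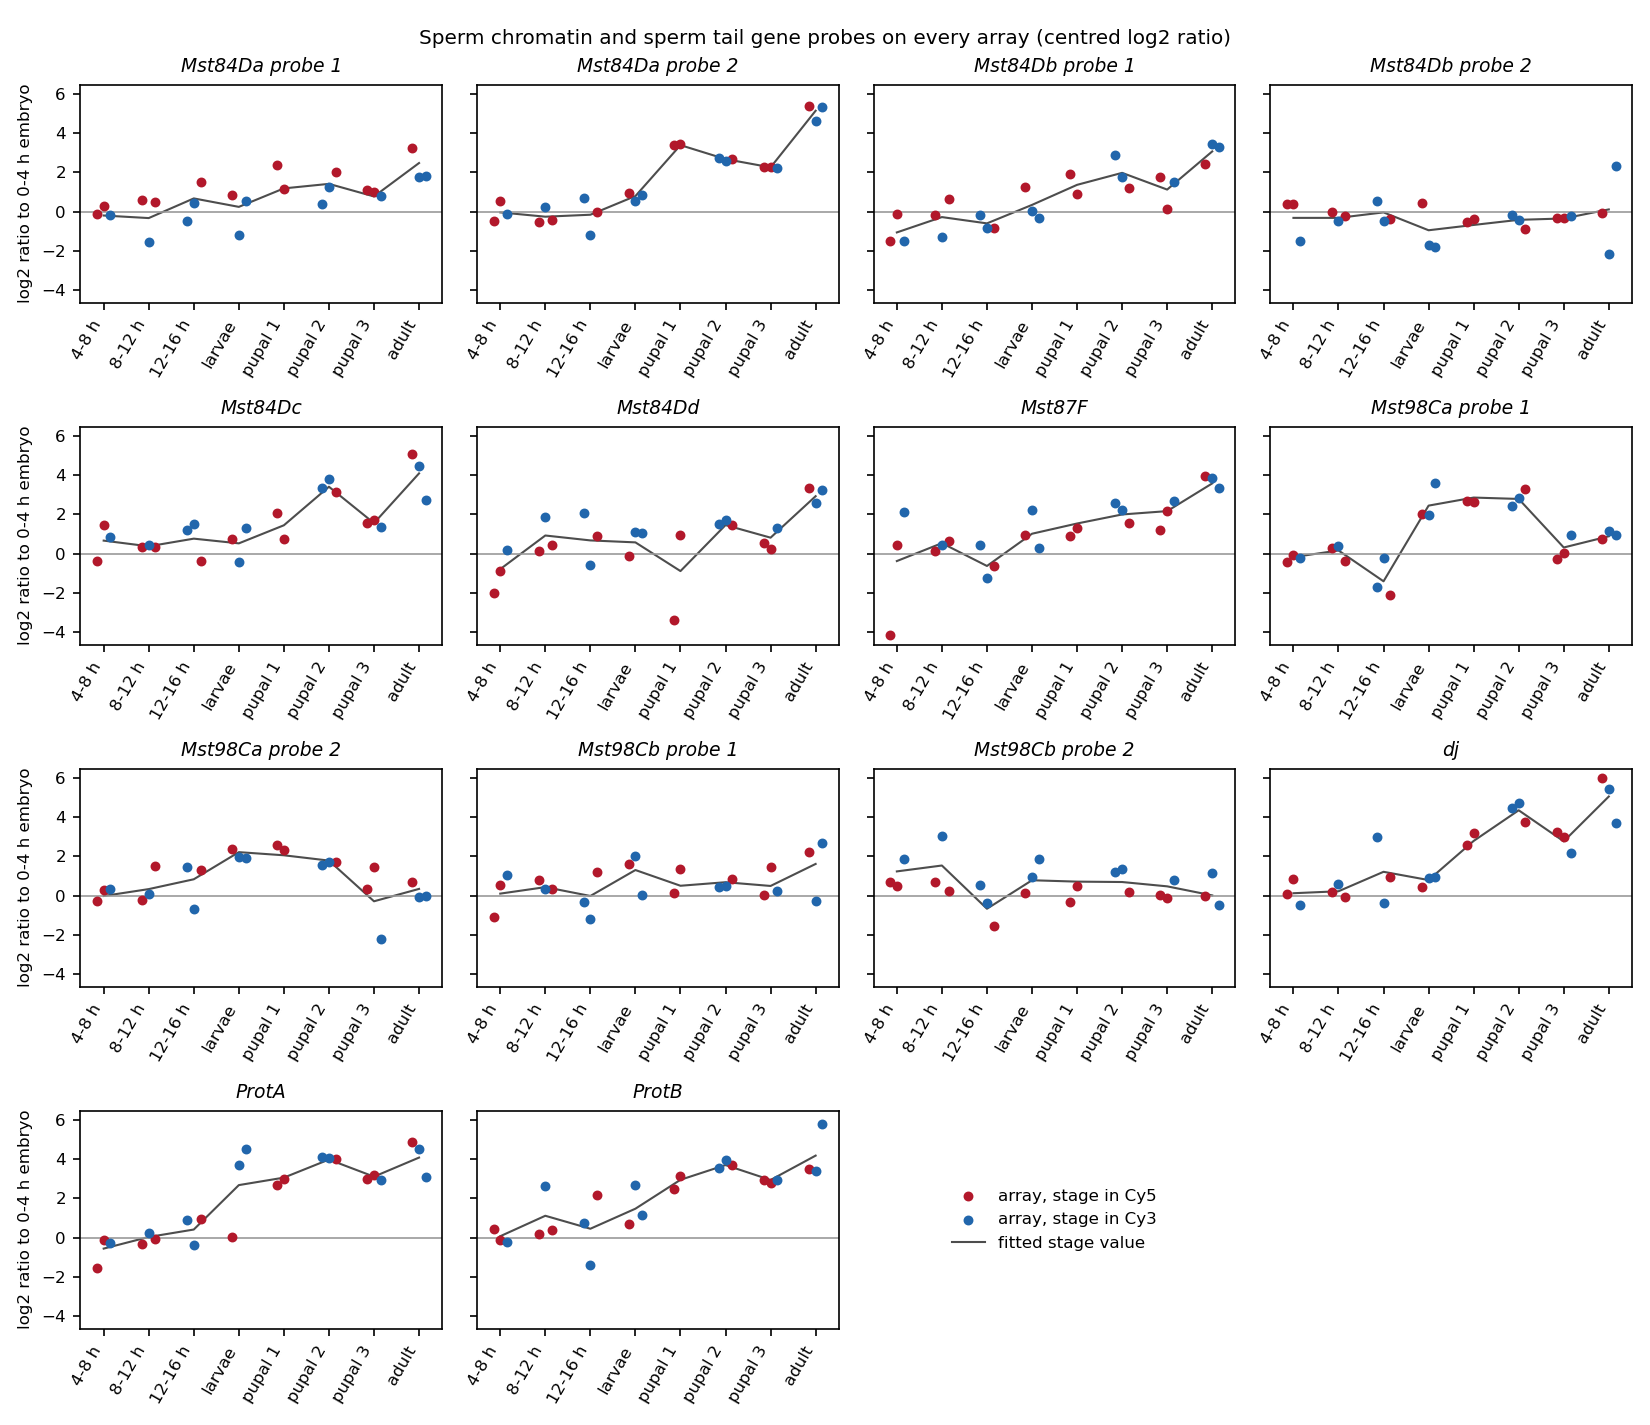
Centred log2 ratio to the 0-4 h embryo (vertical axis) of the 14 probes at each of the 8 stages (horizontal axis). Each point is 1 array, coloured by the dye that carried the stage's RNA, and the line joins the fitted stage values. The adult points of dj lie between 3.69 and 5.96, while those of Mst98Ca probe 1 lie between 0.76 and 1.14.

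Before the single genes, 4 features of the arrays bear on what follows. Arrays a and b of 4-8 h, a of 8-12 h and a of larvae had the narrowest spread of ratios, so results for these stages are also given without these 4 arrays. The deposited ratios were not centred. Left so, the all-probe median was 0.65, -0.97 and -1.60 for the successive embryo stages, -1.08 for larvae, -1.42, -1.76 and -0.37 for pupal stages 1 to 3, and -0.49 for adults, and each change below is relative to that median. The duplicate spots of a probe disagreed by more than 1 on the log2 scale in 114 of the 322 member values (35.4%) and in 29.3% of the values over all probes. In 14 member values they lay more than 4 apart.

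The protamines were raised from pupal stage 1 onward. ProtA was at 2.68 and 2.98 at pupal stage 1, at 4.11, 4.03 and 3.99 at pupal stage 2, at 2.99, 3.19 and 2.91 at pupal stage 3 and at 4.86, 4.52 and 3.07 on the adult arrays. All of these values stood above the highest of the 9 embryo values, which was 0.96. Without centring the highest embryo value was 1.80, above both pupal stage 1 values (1.66 and 1.34) and pupal stage 2 array b (1.65). The adult value of 3.07 averaged 2 spots that read 0.34 and 5.80. In larvae ProtA was at 0.05, 3.67 and 4.51, so array a, one of the 4 with a narrow spread, stood far below the other two. The fit put ProtA at 2.67 ± 0.55 (SE) in larvae (6.36-fold, adjusted p = 0.00136), 3.05 ± 0.70 at pupal stage 1 (adjusted p = 0.00335), 3.97 ± 0.55 at pupal stage 2 (adjusted p = 2.3e-05), 3.10 ± 0.55 at pupal stage 3 (adjusted p = 0.000213) and 4.07 ± 0.55 in adults (16.8-fold, adjusted p = 9.42e-06). Without the 4 narrow arrays the larval value was 4.27 (adjusted p = 4.82e-05). The larval call was lost in a fit of only the arrays compared, and the pupal stage 1 call without array a of that stage. Both calls were also lost without centring, at 1.53 ± 0.64 in larvae and 1.62 ± 0.82 at pupal stage 1.

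ProtB, the second protamine, had a stage profile close to that of ProtA (r = 0.94 over the 8 fitted stage values, which share the reference). It was at 2.47 and 3.15 at pupal stage 1, at 3.54, 3.97 and 3.68 at pupal stage 2, at 2.92, 2.78 and 2.95 at pupal stage 3 and at 3.51, 3.37 and 5.77 in adults. Its larval values, 0.71, 2.69 and 1.16, overlapped those of the embryos, where single arrays reached 2.62 at 8-12 h and 2.15 at 12-16 h. The fitted values were 2.94 ± 0.73 at pupal stage 1 (adjusted p = 0.00553), 3.69 ± 0.57 at pupal stage 2 (adjusted p = 7.21e-05), 2.93 ± 0.57 at pupal stage 3 (adjusted p = 0.000517) and 4.17 ± 0.57 in adults (18.1-fold, adjusted p = 1.04e-05). In larvae ProtB stood at 1.47 ± 0.57 and did not pass (adjusted p = 0.0668). Leaving out either array of pupal stage 1 ended the call there, and so did leaving the arrays uncentred (1.51 ± 0.84). For both protamines the calls at pupal stages 2 and 3 and in adults held in all 33 alternative settings tried, and no comparison between successive stages passed for either gene.

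The sperm tail gene dj had the highest adult value after Mst84Da probe 2. It was at 0.44, 0.92 and 0.94 in larvae, at 2.55 and 3.17 at pupal stage 1, at 4.47, 4.72 and 3.75 at pupal stage 2, at 3.25, 2.96 and 2.15 at pupal stage 3 and at 5.96, 5.40 and 3.69 in adults. Adult and larval values did not overlap, while adult and pupal stage 2 values did. A single array of 12-16 h embryos reached 2.96, with the other two at -0.38 and 0.97. The fit gave 2.78 ± 0.62 at pupal stage 1 (adjusted p = 0.0026), 4.34 ± 0.48 at pupal stage 2 (20.2-fold, adjusted p = 2.18e-06), 2.76 ± 0.48 at pupal stage 3 (adjusted p = 0.00019) and 5.04 ± 0.48 in adults (33.0-fold, adjusted p = 1.8e-07). Adults exceeded larvae by 4.25 ± 0.68 (19.0-fold, adjusted p = 0.000614). The pupal stage 1 call was lost without array b of that stage or without centring, and the others held in all 33 settings. Pupal stage 3 against pupal stage 2 gave -1.58 ± 0.69 and did not pass (adjusted p = 0.481).

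The Mst84D genes form a cluster of sperm tail genes, and 5 of their 6 probes passed in adults. Mst84Da probe 2 was at 0.97, 0.55 and 0.82 in larvae, at 3.39 and 3.43 at pupal stage 1, at 2.75, 2.57 and 2.65 at pupal stage 2, at 2.27, 2.29 and 2.22 at pupal stage 3 and at 5.39, 4.62 and 5.34 in adults. No pupal or adult array overlapped the larval arrays, and every adult array stood above every pupal one. Without centring pupal stage 2 array b and larval array a were both at 0.19. It is the one member probe that rose between successive stages after the larva: pupal stage 1 was above larvae by 2.58 ± 0.53 (adjusted p = 0.0221), and adults were above pupal stage 3 by 2.88 ± 0.45 (7.35-fold, adjusted p = 0.00296). Against the 0-4 h embryo it passed at pupal stage 1 (3.38 ± 0.41, adjusted p = 9.3e-06), pupal stage 2 (2.67 ± 0.32, adjusted p = 4.48e-06) and pupal stage 3 (2.25 ± 0.32, adjusted p = 1.96e-05). The fitted adult value of 5.13 ± 0.32 had an adjusted p of 1.63e-09, and adults exceeded larvae by 4.33 ± 0.45 (20.1-fold, adjusted p = 8.35e-06). The call of pupal stage 1 over larvae was lost without larval array b, pupal stage 1 array a or the 4 narrow arrays. Both step calls were lost without centring, with the arrays scaled to one spread and in a fit of only the arrays compared.

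Mst84Dc passed from pupal stage 2 onward. It was at 0.73, -0.41 and 1.28 in larvae, at 2.05 and 0.76 at pupal stage 1, at 3.36, 3.77 and 3.12 at pupal stage 2, at 1.56, 1.69 and 1.36 at pupal stage 3 and at 5.09, 4.44 and 2.75 in adults. Pupal stage 2 thus stood above pupal stages 1 and 3 on every array. Without centring pupal stages 2 (1.34, 1.39 and 2.13) and 3 (0.43, 1.15 and 1.83) overlapped, and their difference was -0.53 ± 0.91. At pupal stage 1 the value of 1.44 ± 0.58 did not pass (adjusted p = 0.0785). The later fitted values were 3.40 ± 0.46 at pupal stage 2 (10.6-fold, adjusted p = 1.56e-05), 1.55 ± 0.46 at pupal stage 3 (adjusted p = 0.0134) and 4.08 ± 0.46 in adults (16.9-fold, adjusted p = 1.03e-06). The pupal stage 3 call was lost without array a or array b of that stage. The tests of pupal stage 2 over 1 (1.96 ± 0.75, adjusted p = 0.321) and of pupal stage 3 against 2 (-1.85 ± 0.65, adjusted p = 0.329) did not pass. Adults exceeded larvae by 3.56 ± 0.64 (adjusted p = 0.00168), a call lost in a fit of only the arrays compared.

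Mst84Dd and Mst87F also reached their highest values in adults, with lower pupal values than dj. Mst84Dd was at -3.39 and 0.93 at pupal stage 1, at 1.52, 1.69 and 1.47 at pupal stage 2, at 0.56, 0.24 and 1.28 at pupal stage 3 and at 3.32, 2.55 and 3.23 in adults. The value of -3.39 comes from 2 spots 7.12 apart. Its adult value was 2.92 ± 0.58 (7.57-fold, adjusted p = 0.000514), and no other stage passed. Mst87F, a tail protein gene outside the Mst84D cluster, was at 2.59, 2.24 and 1.56 at pupal stage 2, at 1.20, 2.15 and 2.68 at pupal stage 3 and at 3.94, 3.85 and 3.36 in adults. It passed at pupal stage 2 (1.99 ± 0.67, adjusted p = 0.0332), at pupal stage 3 (2.16 ± 0.67, adjusted p = 0.0184) and in adults (3.57 ± 0.67, 11.9-fold, adjusted p = 0.000288). The adult calls of both genes held in all 33 settings. The pupal stage 2 call of Mst87F was lost without any 1 of that stage's 3 arrays, and the pupal stage 3 call without array b or c. On the 4-8 h arrays Mst87F ran between -4.14 and 2.11, the widest spread of any member at 1 stage. All stages share 1 estimate of the spread, and the value of -4.14 came from 1 of the 4 narrow arrays. Without these arrays Mst87F was at 2.07 at both pupal stages 2 and 3 (adjusted p = 0.00158 and 0.00143). Neither pupal call held without centring, at 0.22 ± 0.69 and 1.72 ± 0.69.

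**Figure D2:**
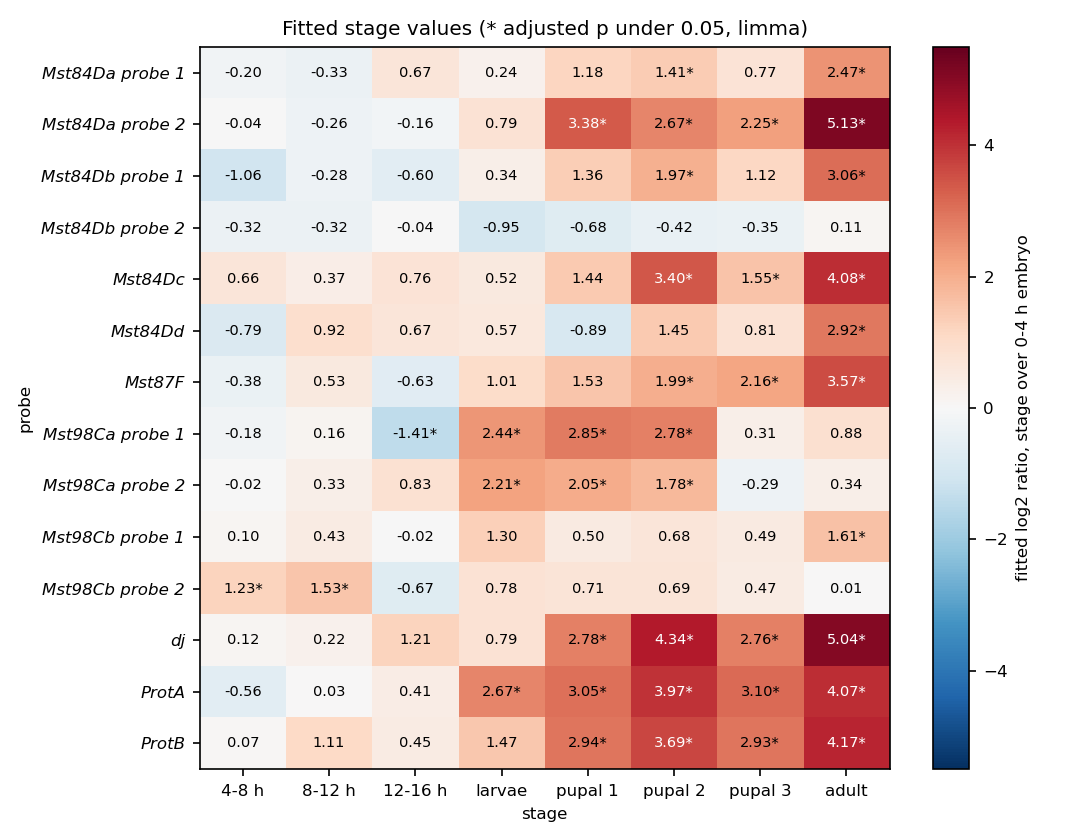
Fitted log2 ratio of each stage over the 0-4 h embryo (colour and number) for the 14 probes (rows) at the 8 stages (columns), with an asterisk where the adjusted p by limma was under 0.05. The asterisks number 10 in adults and 10 at pupal stage 2, and 3 in larvae.

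Mst98Ca, from another pair of this tail protein family, was high from larvae to pupal stage 2 and not at pupal stage 3 or in adults, on both of its probes. Probe 1 was at 1.99, 1.97 and 3.59 in larvae, at 2.66 and 2.60 at pupal stage 1, at 2.40, 2.85 and 3.31 at pupal stage 2, at -0.27, 0.01 and 0.97 at pupal stage 3 and at 0.76, 1.14 and 0.97 in adults. Probe 2 was at 2.38, 1.94 and 1.89 in larvae, at 2.57 and 2.33 at pupal stage 1, at 1.54, 1.69 and 1.72 at pupal stage 2, at 0.31, 1.43 and -2.22 at pupal stage 3 and at 0.68, -0.05 and -0.01 in adults. With centring, every larval, pupal stage 1 and pupal stage 2 array stood above every pupal stage 3 and adult array on both probes. Left uncentred, these arrays overlapped on both. Probe 1 was then at 0.37, 0.47 and 2.33 at pupal stage 2 and at -1.40, -0.53 and 1.44 at pupal stage 3. Probe 2 was then at -0.49, -0.69 and 0.73 at pupal stage 2 and at -0.83, 0.88 and -1.75 at pupal stage 3. The value of -2.22 averages 2 spots 6.76 apart. In larvae probe 1 was at 2.44 ± 0.35 (5.43-fold, adjusted p = 4.7e-05) and probe 2 at 2.21 ± 0.46 (4.61-fold, adjusted p = 0.00142). At pupal stage 1 they were at 2.85 ± 0.45 (adjusted p = 0.000138) and 2.05 ± 0.58 (adjusted p = 0.0142), and at pupal stage 2 at 2.78 ± 0.35 (adjusted p = 9.49e-06) and 1.78 ± 0.46 (adjusted p = 0.00631). Without the 4 narrow arrays the larval values were 2.52 and 2.54, and both passed. The pupal stage 1 call of probe 2 was lost without either array of that stage, and its pupal stage 2 call without array b there. The larval calls of both probes were lost in a fit of only the arrays compared.

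In adults Mst98Ca was at 0.88 ± 0.35 by probe 1 (adjusted p = 0.0609) and at 0.34 ± 0.46 by probe 2 (adjusted p = 0.621), and neither passed. Pupal stage 3 against pupal stage 2 gave -2.46 ± 0.51 for probe 1, a fall to 0.181 of the ratio (adjusted p = 0.0391), and -2.07 ± 0.65 for probe 2, which did not pass (adjusted p = 0.261). The probe 1 call was lost in 21 of the 33 settings, 14 of which left out 1 array, and without centring the difference was -1.14 ± 0.91. A comparison of adults with pupal stage 2, added after the data were seen, gave -1.89 ± 0.50 for probe 1 (adjusted p = 0.0547) and -1.44 ± 0.64 for probe 2 (adjusted p = 0.374), beside 0.70 ± 0.68 for dj (adjusted p = 0.831) and 2.46 ± 0.45 for Mst84Da probe 2 (adjusted p = 0.00428), a call lost with arrays scaled to one spread. The same comparison without centring gave -0.69 ± 0.89 for Mst98Ca probe 1 and -0.23 ± 0.81 for probe 2, and neither passed. For dj it then gave 1.91 ± 0.88, which did not pass, and for Mst84Da probe 2 3.67 ± 0.84, which passed. Whether Mst98Ca differed from the other genes in its course was not tested. Without centring, neither Mst98Ca probe passed in larvae or at pupal stages 1 and 2: probe 1 was then at 1.31, 1.42 and 1.02 and probe 2 at 1.07, 0.62 and 0.02. Probe 1 was lower than the reference at 12-16 h, at -1.41 ± 0.35 (adjusted p = 0.00459), on arrays at -1.70, -0.21 and -2.11, and larvae exceeded 12-16 h embryos by 3.86 ± 0.50 (adjusted p = 7.46e-05). Probe 2 was at 0.83 ± 0.46 at 12-16 h and did not pass. The 12-16 h call of probe 1 was lost without array a or array c of that stage.

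The 2 probes of a gene could disagree. For Mst84Da they had like profiles (r = 0.92 over the 8 stages), but probe 1 gave 2.47 ± 0.36 in adults (adjusted p = 2.51e-05) where probe 2 gave 5.13. On the adult arrays probe 1 was at 3.24, 1.76 and 1.82 against 5.39, 4.62 and 5.34 for probe 2, lower on all 3. Probe 1 also passed at pupal stage 2, at 1.41 ± 0.36 (adjusted p = 0.00673), a call lost without array b or array c of that stage or without a dye term, and at -0.36 without centring. It had a dye term of 0.57 (adjusted p = 0.0125), meaning that ratios read higher with the stage in Cy5. For Mst84Db, probe 1 was at 2.41, 3.45 and 3.28 in adults (3.06 ± 0.45, adjusted p = 2.48e-05), and at 1.97 ± 0.45 at pupal stage 2 (adjusted p = 0.00269), which was lost without array a there. Probe 2 of the same gene was at -0.06, -2.14 and 2.30 in adults (0.11 ± 0.56) and passed at no stage. The duplicate spots behind -2.14 lay 5.10 apart.

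For Mst98Ca the stage profiles of the 2 probes correlated at 0.77, and for Mst98Cb at -0.05. Mst98Cb probe 1 was at 2.23, -0.30 and 2.68 in adults, and probe 2 at -0.03, 1.17 and -0.46, so each array that was high on one probe was low on the other. Probe 1 passed in adults, at 1.61 ± 0.53 (adjusted p = 0.0235), and the call was lost without array a or array c. The spots behind 2.68 read -0.57 and 5.94. Probe 2 passed in 4-8 h embryos (1.23 ± 0.35, adjusted p = 0.0388) and in 8-12 h embryos (1.53 ± 0.35, adjusted p = 0.00835), the only calls of a higher value in embryos among the 14 probes. Its arrays there were at 0.70, 0.49 and 1.85, and at 0.70, 3.01 and 0.22, and its dye term was -0.65 (adjusted p = 0.0053). Without a dye term neither call held. Without the 4 narrow arrays the values were 1.21 (adjusted p = 0.56) and 1.61 (adjusted p = 0.0665), the 4-8 h call was also lost without any 1 of that stage's arrays, and the 8-12 h call without its array b.

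**Figure D3:**
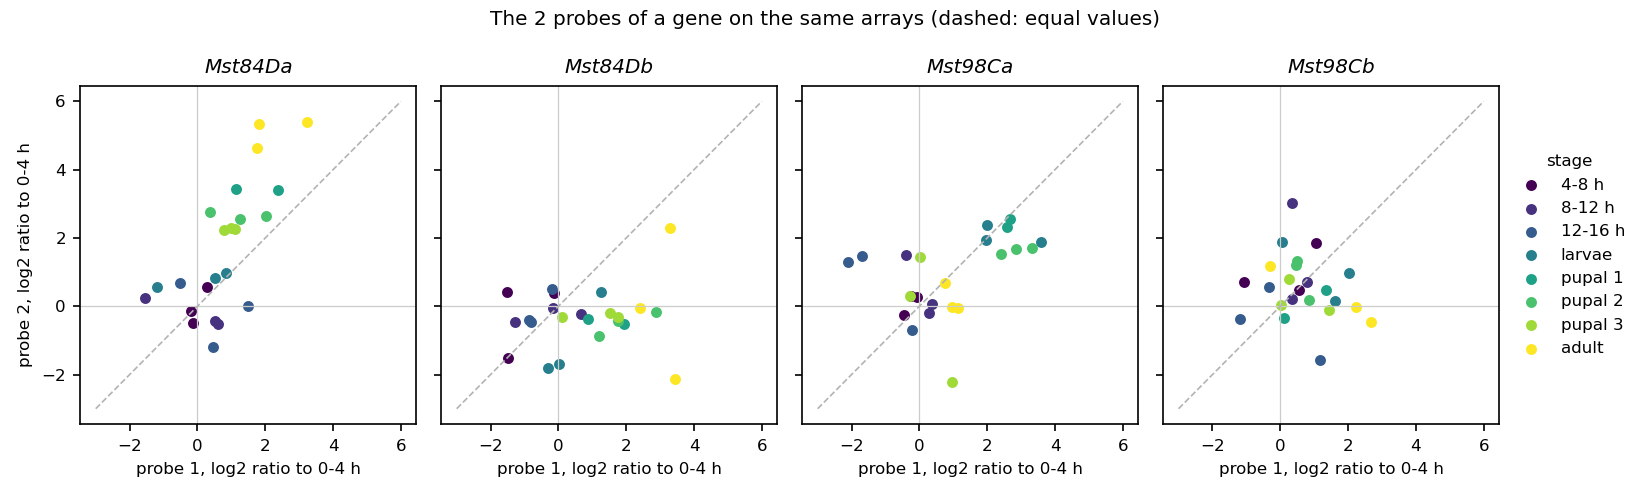
Log2 ratio to the 0-4 h embryo by probe 1 (horizontal axis) and probe 2 (vertical axis) of the 4 genes with 2 probes, each point 1 array coloured by stage, the dashed line marking equal values. The adult points of Mst84Da lie above the line (probe 2 at 4.62 to 5.39), those of Mst84Db run from -2.14 to 2.30 on probe 2, and the larval and pupal stage 1 and 2 points of Mst98Ca are high on both probes.

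Counted over the 14 probes, the share that rose was largest at pupal stage 2 and in adults. At 4-8 h 1 probe rose against 1.49% of all probes, and at 8-12 h 1 against 3.83%. At 12-16 h 0 rose by limma (1 at an unadjusted p under 0.05) against 16.8% of all probes, and 1 fell against 12.5%. In larvae 3 probes rose (ProtA and both of Mst98Ca) against 8.76% of all probes, at pupal stage 1 6 rose against 7.58%, at pupal stage 2 10 against 9.30% and at pupal stage 3 6 against 9.53%. The adult count of 10 stood against 15.2%. The median over the 14 probes was -0.11, 0.27 and 0.19 in the 3 embryo stages, 0.79 for larvae, 1.49, 1.98 and 0.96 for the 3 pupal stages and 2.99 for adults. Centring each array holds the same median over all probes near 0, and it lay between 0.00 and 0.08.

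**Figure D4:**
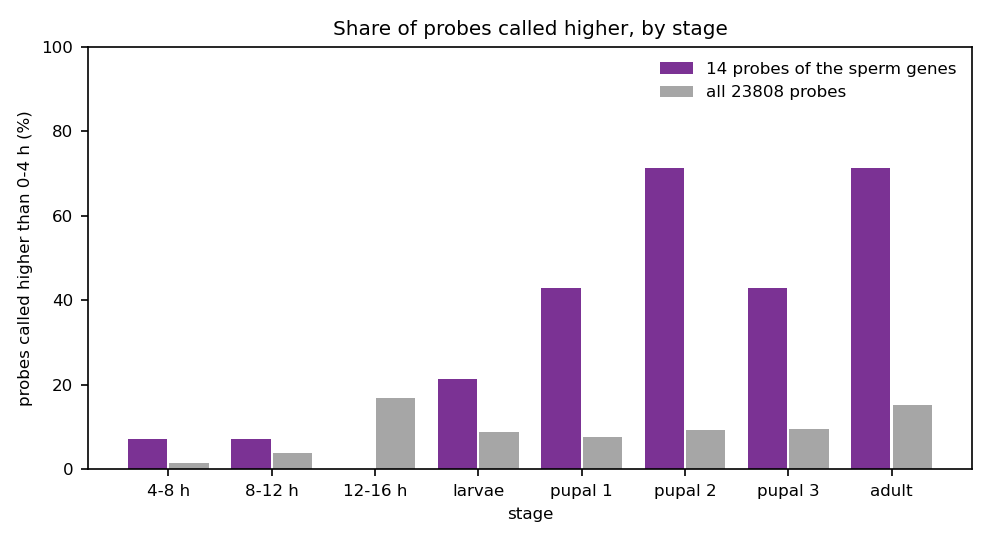
Percent of probes called higher than the 0-4 h embryo (vertical axis, adjusted p under 0.05 by limma) at each of the 8 stages, for the 14 probes of the sperm genes (purple) and for all 23808 probes (grey). At 12-16 h 0 of the 14 probes rose against 16.8% of all probes, and the bars are farthest apart at pupal stage 2, where 10 of 14 rose against 9.30%.

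Part of this course depended on the scaling. Without centring, the count of probes that rose was 0 in larvae, 1 at pupal stage 1, 4 at pupal stage 2, 4 at pupal stage 3 and 9 in adults. The calls that remained were Mst84Da probe 2 at pupal stage 1, Mst84Dc, dj, ProtA and ProtB at pupal stage 2, Mst84Da probe 2, dj, ProtA and ProtB at pupal stage 3, and in adults all but Mst98Cb probe 1. The median over the 14 probes was then -0.34, 0.06, 0.22, 0.52 and 2.44 at these stages. At 4-8 h the uncentred median was 0.52. The median of the probes' own differences, pupal stage 3 minus pupal stage 2, was -0.70 with centring, -0.93 with arrays scaled to one spread and 0.63 without centring. The high adult values held under both scalings, with a median of 2.45 when arrays were scaled to one spread.

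Between stages, fewer probes passed. The F-test over all 8 stages passed for 11 of the 14 probes, against 21.0% of all probes, the exceptions being Mst84Db probe 2 and both probes of Mst98Cb. Adults exceeded larvae on 5 probes, against 3.75% of all probes: Mst84Da probe 1 (2.22 ± 0.51) and probe 2, Mst84Db probe 1 (2.72 ± 0.63), Mst84Dc and dj. The call of Mst84Da probe 1 was lost without larval array b or adult array a, and that of Mst84Db probe 1 without array b or c of either stage. Both were also lost with arrays scaled to one spread and in a fit of only the arrays compared. That of Mst84Da probe 1 was further lost without centring and without a dye term. Without the 4 narrow arrays Mst84Da probe 1 did not pass (2.20, adjusted p = 0.0672), while Mst87F did (2.56, adjusted p = 0.0442). With all arrays ProtB missed the threshold for adults over larvae at 2.70 ± 0.80 (adjusted p = 0.0564). ProtA, already high in larvae, stood at 1.40 ± 0.77 (adjusted p = 0.358), and at -0.06 without the 4 narrow arrays. From step to step, larvae over 12-16 h embryos passed for 1 probe (Mst98Ca probe 1) against 2.63% of all probes, pupal stage 1 over larvae for 1 (Mst84Da probe 2) against 0.458%, and adults over pupal stage 3 for 1 (Mst84Da probe 2) against 1.10%. Pupal stage 3 was lower than pupal stage 2 for 1 probe (Mst98Ca probe 1) against 0.311%. Pupal stage 2 against pupal stage 1 passed by limma for 0 of 14 in either direction, against 0.638% of all probes, with 2 at an unadjusted p under 0.05. The added comparison of adults with pupal stage 2 passed for 1 (Mst84Da probe 2) against 1.34%. Some probes that did not pass also had neighbouring stages whose arrays did not overlap: Mst84Dc at pupal stage 2 as described, dj in adults (3.69 to 5.96) over pupal stage 3 (2.15 to 3.25), and Mst84Dd in adults (2.55 to 3.32) over pupal stage 3 (0.24 to 1.28). Without centring the Mst84Dc arrays of pupal stages 2 and 3 overlapped, while those of dj and Mst84Dd in adults and at pupal stage 3 did not. At an unadjusted p under 0.05, 6 of the 14 probes were higher in adults than at pupal stage 3. With centring, the median over the probes was highest in adults, followed by pupal stages 2, 1 and 3, larvae and the embryos, and without centring this order did not hold below the adults.

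Other genes of the same pathway were read from lists, each count set against the share of all probes called in that direction. Of the other spermatid chromatin genes, 5 of 6 probes rose in adults (15.2% of all probes) and 4 of 6 at pupal stage 2 (9.30%), with medians of 3.84 and 2.30. Mst77F, a histone-like protein of the spermatid nucleus, was at 4.86 and 4.66 on its 2 probes in adults and at 3.04 and 4.20 at pupal stage 2, and the transition protein gene Tpl94D was at 4.62 and 3.75. The HMG-box gene tHMG2 was at 3.05 in adults, 1.52 at pupal stage 2 and 4.81 in larvae. Prtl99C, which encodes a further protamine-like protein, was at -0.78 in adults and did not pass.

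Of the other sperm tail and axoneme genes, 11 of 21 probes rose and 1 fell in adults (median 1.13; all probes 15.2% and 19.2%), and 6 rose at pupal stage 2 (median 0.59; all probes 9.30%). S-Lap7, a leucyl aminopeptidase of sperm, was at 4.68 in adults and 3.66 at pupal stage 2. The dj relative djl was at 3.55 and 3.10, and S-Lap8 probe 2 at 3.48 and 3.03. The testis tubulin gene betaTub85D was the probe that fell, at -1.14 in adults (adjusted p = 0.00333), against the course of its list. Of the spermatocyte and meiosis genes, 8 of 12 probes rose and 1 fell in adults (median 2.42; all probes 15.2% and 19.2%), and 6 rose and 1 fell at pupal stage 2 (median 1.34; all probes 9.30% and 16.0%). Among them w-cup was at 4.12 in adults and 3.52 at pupal stage 2, soti, which acts in caspase control during spermatid individualization, at 3.91 and 2.70, and Mst33A at 3.20 and 3.64. The gene twe, a Cdc25 phosphatase of meiosis, fell in both, at -3.34 and -3.05. Its messenger is also supplied to the egg.

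Of the testis transcription genes, which encode regulators needed for the spermatocyte programme, 2 of 12 probes rose in adults, a share near the 15.2% of all probes, both of nht (1.30 and 1.18), and 0 of 12 at pupal stage 2 by limma (2 at an unadjusted p under 0.05), with list medians of 0.38 and -0.01. The labels do not name testis as a tissue, so the male germ line was checked by its markers: 4 of 8 probes rose and 1 fell in adults (all probes 15.2% and 19.2%), and 4 rose at pupal stage 2 (9.30%). Those that rose were both probes of Mst77F and both of bol, at 1.84 and 2.62 in adults and 1.39 and 2.42 at pupal stage 2. Mst77F and bol are in a list above as well, and betaTub85D is the marker that fell. No probe of the remaining markers, aly and can, passed in adults or at pupal stage 2. The probes of bol, a translation regulator of meiosis, also rose in embryos, to 1.99 and 1.57 at 8-12 h (2 of the 8 marker probes, against 3.83% of all probes) and 2.61 and 3.28 at 12-16 h (2 of 8, against 16.8%). Of the 14 sperm gene probes, 1 passed as higher at 8-12 h and 0 at 12-16 h. At 12-16 h 2 of the 8 fell (12.5% of all probes), betaTub85D at -0.98 and Mst77F probe 2 at -2.28.

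Markers of other reproductive tissues rose at some of the stages at which the sperm genes did. Of the accessory gland and ejaculatory bulb markers, 8 of 12 probes rose in adults (15.2% of all probes), led by EbpIII at 6.44, Ebp at 6.01 and Acp36DE at 5.52, and 3 of 12 at pupal stage 2 (9.30%). Their median per array ran from 0.20 to 1.27 at pupal stage 2, from 0.59 to 1.49 at pupal stage 3 and from 3.56 to 3.79 in adults. Of the female follicle cell and yolk markers, 7 of 13 rose in adults (15.2% of all probes) and 7 of 13 at pupal stage 2 (9.30%), led by the yolk protein gene Yp2 at 6.22 and 4.39, and 1 of 13 at pupal stage 3, a share near the 9.53% of all probes. Their median per array ran from 1.37 to 1.59 at pupal stage 2, from -0.25 to 0.13 at pupal stage 3 and from 1.02 to 1.88 in adults, with no overlap between pupal stages 2 and 3. Of the early germ line markers, vas, nos and pgc had no probe. Of the 4 probes of the others, 1 fell in adults, a share near the 19.2% of all probes. It was that of osk at -3.21, a messenger laid down in the egg. At pupal stage 2, 2 of the 4 fell (16.0% of all probes). The part of these other tissues in the values of the sperm genes was not tested.

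**Figure D5:**
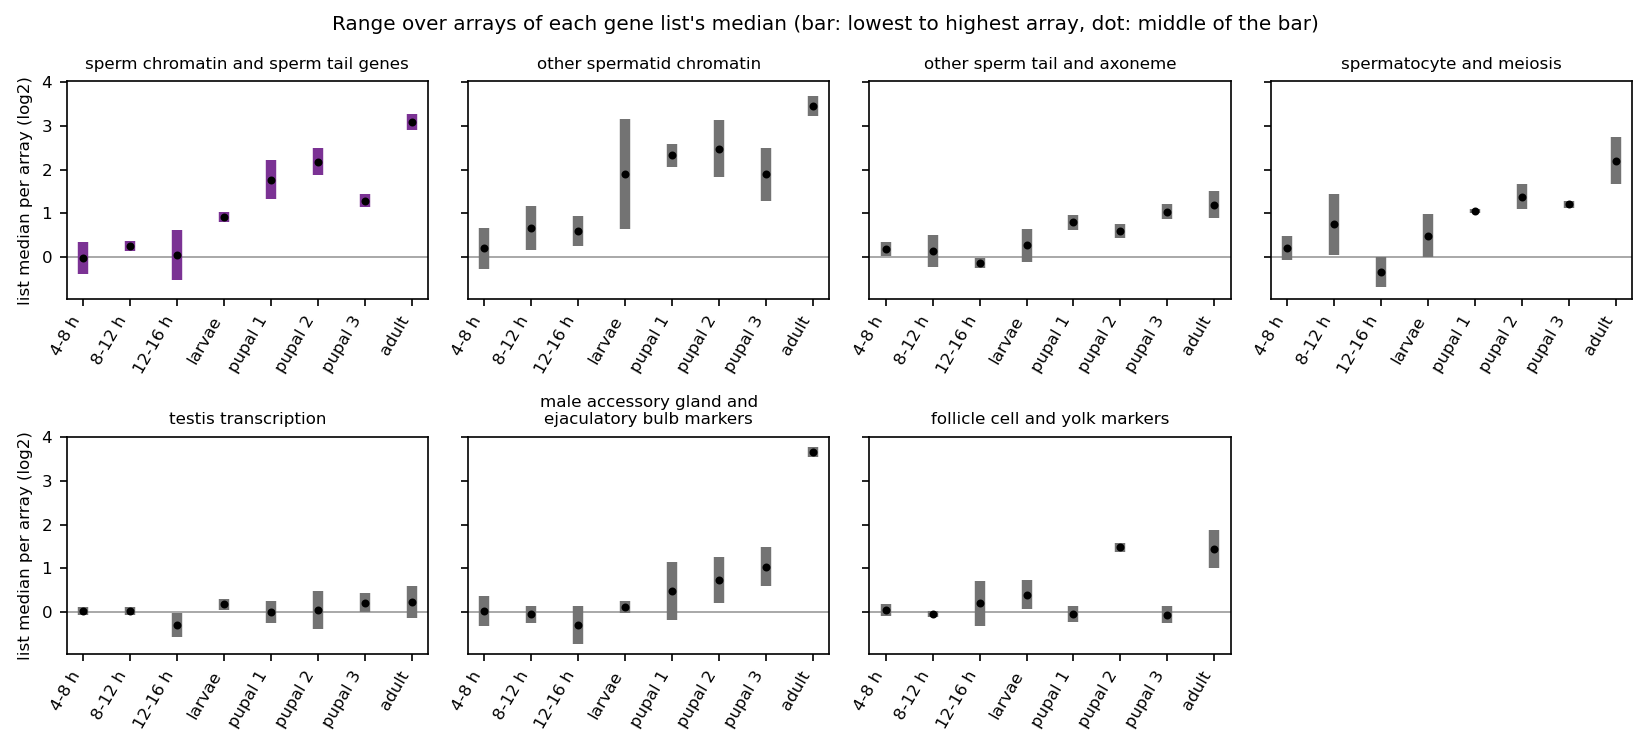
Range over the arrays of a stage (bar from lowest to highest, dot at the middle) of the median log2 ratio of each gene list, for the 8 stages on the horizontal axis. Yolk and follicle markers stand at 1.37 to 1.59 at pupal stage 2 and at -0.25 to 0.13 at pupal stage 3, and accessory gland markers at 3.56 to 3.79 in adults.

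The genes had much of their course in common. The profile of a probe over the 8 stages, set against the median of the other members, correlated at 0.97 for Mst84Db probe 1, 0.94 for ProtB, 0.93 for Mst84Da probe 2, 0.92 for dj, 0.91 for Mst84Da probe 1 and Mst84Dc, 0.88 for Mst87F, 0.87 for ProtA, 0.73 for Mst98Cb probe 1 and 0.64 for Mst84Dd. It was 0.47 and 0.19 for Mst98Ca, 0.26 for Mst84Db probe 2 and -0.36 for Mst98Cb probe 2. All profiles share the arrays and the reference, and these values describe 8 stages only.

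Among 13441 other probes with 1 symbol, those whose 8 stage values were most like the median of the members were Mst77F probe 1 (r = 0.989), CG12902 (0.984), Qsox3 (0.983), soti (0.981), CG32846 (0.979), CG18568 (0.977), CG5762 (0.974), CG30376 (0.972), CG13436 (0.970) and CG12998 (0.969). Mst77F probe 2, at -2.28 at 12-16 h, was not among these 10. Correlation ignores size: Qsox3 reached 1.31 in adults, while CG12998 reached 5.09. By Euclidean distance 2 of these 10, CG18568 and CG13436, were again among the nearest 10. Most like dj alone were CG14154 (r = 0.989), CG31029 (0.988), S-Lap7 (0.987), the cuticle protein family gene Cpr97Eb (0.987) and CG4691 (0.981). Cpr97Eb was at 6.03 in adults and 5.14 at pupal stage 2, above dj at both.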

How the data were processed

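Per the labels, total RNA was labelled after random priming, hybridized to glass slides, scanned with ScanArray 3.1 and quantified with GenePix 4.0, with at least 1 dye swap a stage. The deposited values are log2 ratios of Cy5 over Cy3, made by the authors, for 47616 spots, 2 per probe. This scale, and the lack of centring (array medians -1.89 to 2.38), were read from the values. The direction comes from the dyes in the labels: 132 of 132 array pairs of opposite dye correlated below 0 as deposited, and 0 once Cy3-stage arrays had their sign turned. The background correction is not stated in the labels or headers used here. No channel intensities were used, so signal over background is unknown and the number of arrays limits the precision. Array c of pupal stage 1 held log2 of whole numbers (200 to 29365), a signal of 1 channel, and entered no comparison.

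Values at the limits of the scale (633, or 0.0578%) were set to missing, arrays were centred on their median and duplicate spots averaged. limma 3.58.1 in R 4.3.3 fitted 1 coefficient per stage and a dye term per probe over 23 arrays (residual df 14), with two-sided tests and Benjamini-Hochberg adjustment over 23808 probes at 0.05. The fit was tested on simulated data. By the platform annotation 13455 probes had 1 gene symbol, 153 several and 10200 none. The members and lists were chosen with earlier results of these data known. Named are all member probes, the 3 largest passing probes of each list in adults and at pupal stage 2, list members singled out for going against their list, and the 10 and 5 most similar profiles. The alternatives were 10 other settings and 23 fits that each left out 1 array. The letters of the arrays do not pair them: 28 of 77 pairs with the same letter correlated over 0.1 (range -0.62 to 0.48).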

Additional observations from a re-analysis of the deposited data

How the results depend on the processing

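Of the 48 calls of member probes, 20 held in all 33 settings, 22 were lost without centring (1 more turned its sign) and 18 when at least 1 array was left out. The adult count of 10 and the pupal stage 3 count of 6 stayed within 1.5 times under all settings run. For adults over pupal stage 2, scaling the arrays to one spread ended the call of Mst84Da probe 2 (adjusted p = 0.311) and made one of Mst98Ca probe 1 (-2.16, adjusted p = 0.0484), so the count stayed at 1. Counts of member probes called moved as follows, and the cause was not tested. Without centring they were 0 at 4-8 h, 0 at 8-12 h, 7 at 12-16 h (all lower), 1 in larvae (lower), 2 at pupal stage 1, 5 at pupal stage 2, and 0 for pupal stage 1 over larvae, pupal stage 3 against 2 and adults over pupal stage 3. With arrays scaled to one spread they were 2 at 4-8 h, 0 at 12-16 h, 0 for pupal stage 1 over larvae, 0 for adults over pupal stage 3 and 3 for adults over larvae. With no dye term they were 0 at 4-8 h, 0 at 8-12 h and 0 for pupal stage 3 against 2. With duplicate spots over 1 apart set to missing they were 2 at 12-16 h, 6 in larvae, 2 for larvae over 12-16 h, 0 for pupal stage 3 against 2, 4 for adults over pupal stage 3, 8 for adults over larvae and 6 in the F-test. With limit values kept they were 0 at 4-8 h, 0 at 8-12 h and 2 at 12-16 h. With the 4 narrow arrays as a block they were 0 at 4-8 h, 2 for larvae over 12-16 h and 0 for pupal stage 1 over larvae, and with these left out 0 at 4-8 h, 0 at 8-12 h, 2 for larvae over 12-16 h, 0 for pupal stage 1 over larvae and 0 for pupal stage 3 against 2. With the like-dyed pupal pairs averaged they were 0 at 4-8 h, 0 for pupal stage 1 over larvae and 0 for pupal stage 3 against 2. Fitting only the arrays compared gave 0 at each embryo stage, 0 in larvae, 0 for larvae over 12-16 h, 0 for pupal stage 1 over larvae, 0 for pupal stage 3 against 2, 0 for adults over pupal stage 3 and 2 for adults over larvae, on fewer samples, and has no value for the F-test. With the array letter as a replicate block they were 0 at 4-8 h, 2 at 12-16 h, 9 at pupal stage 2, 9 in adults and 0 for pupal stage 3 against 2, although the letters do not pair the arrays: 3 of 23 correlated best with their own letter.

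Leaving out 1 array at a time gave 0 to 1 calls at 4-8 h, 0 to 1 at 8-12 h, 0 to 3 at 12-16 h, 3 to 5 in larvae, 3 to 7 at pupal stage 1 (3 without its array a), 7 to 11 at pupal stage 2, 5 to 6 at pupal stage 3, 9 to 11 in adults, 1 to 3 for larvae over 12-16 h, 0 to 2 for pupal stage 1 over larvae, 0 to 1 for pupal stage 2 against 1, 0 to 1 for pupal stage 3 against 2, 1 to 2 for adults over pupal stage 3, 4 to 7 for adults over larvae, 1 to 2 for adults over pupal stage 2 and 9 to 12 in the F-test. A stage left with 1 array was assumed to vary like the others. The sign turned for Mst84Da probe 1 at pupal stage 2, at -0.36 without centring (1.41 with it), and for Mst84Db probe 2 in adults, at -2.88 with limit values kept (0.11 otherwise), where 1 spot lay at the limit. Without centring the share of called probes that were higher, over all probes, was 83.3%, 1.82%, 4.46%, 2.69%, 1.96%, 1.59%, 9.59% and 22.6% from 4-8 h to adults, against 20.1%, 40.1%, 57.3%, 37.3%, 31.9%, 36.8%, 32.8% and 44.3% with it. Pupal stage 1 rests on 2 arrays of one dye.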
